A study of Homo sapiens with 24 samples.

Results

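The cytosolic ribosomal protein genes described here are the protein-coding genes whose symbols name a protein of the large (RPL) or small (RPS) ribosomal subunit, RPSA and RPLP0 to RPLP2 included and pseudogenes left out. A gene was kept if it stood in both deposited tables and reached 1 TPM in at least 3 of the 24 libraries. The symbol rule matched 84 genes, and 82 were members, 50 of the large and 32 of the small subunit, out of 15653 genes that passed the same filter in both tables. Of the paralogs left out, RPL3L reached 1 TPM in 0 libraries, and RPL10L stood in the untreated table only. RPL39L, the lowest member, ranged between 33.0 and 77.7 TPM. FAU, RACK1 and RPL36AL also belong to or resemble the ribosome, but their symbols fall outside the rule.

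The libraries were made from polyadenylated RNA of cells labelled SH-SY5Y, a human neuroblastoma line, with 3 libraries in each of 8 groups. Cells overexpressing MCART1 (oeMCART1) stood against their negative control (oeNC), and cells with a short hairpin RNA to MCART1 (shMCART1) against a scrambled hairpin (shScramble). MCART1 is the older name of SLC25A51, the carrier that takes NAD+ into mitochondria. All 4 kinds of cells were sampled after 24 h with 0.5 mM MPP+, a complex I inhibitor used to model Parkinson disease in culture, and without it. The labels do not say how many hairpins, constructs or clones were used, nor whether the 3 libraries of a group came from different cultures. The p-values therefore measure only how these libraries vary, which may be technical variation.

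Ribosomal proteins and ribosomal RNA build the ribosome in roughly equal numbers of each protein, and their mRNAs are among the most abundant in dividing cells. Most of these mRNAs begin with a run of pyrimidines, the 5′ terminal oligopyrimidine (TOP) tract, through which the mTOR pathway and LARP1 control their translation and stability. Several members have a paralog of low abundance (RPS27L, RPL22L1, RPL26L1, RPL39L, RPL7L1), and RPL5 and RPL11 also bind MDM2, the ubiquitin ligase of p53.

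Markers that define noradrenergic neuroblastoma were absent or nearly so: PHOX2A reached 0.09, DBH 0.07 and TH 0.04 TPM at most, and for PHOX2A and DBH values with MPP+ were not analysed here. Other genes of the same marker list were present, with GATA2 between 15.2 and 39.1 TPM, GATA3 between 3.85 and 7.24 TPM and HAND2 between 1.39 and 4.44 TPM. The values therefore go against the label for the defining markers, the labels' growth protocol also names HEK293T cells, and the cells are called here by their label alone. SLC25A51 followed the labels in direction: with MPP+ it ranged from 869.9 to 1008 TPM in oeMCART1 cells against 7.87 to 9.44 TPM in oeNC cells, and from 5.06 to 5.82 TPM in shMCART1 cells against 6.87 to 8.47 TPM in shScramble cells. Without MPP+ it ranged from 674 to 697 TPM in oeMCART1 cells against 29.5 to 35.7 TPM in oeNC cells, and from 5.47 to 9.45 TPM in shMCART1 cells against 10.5 to 11.3 TPM in shScramble cells. The tables hold TPM, a relative abundance of transcripts, which is scaled per length and to the same total in every library, so the depth is unknown. In bulk RNA, fewer cells of a type and less RNA per cell cannot be told apart, and a TPM is a share of the mRNA, not an amount per cell.

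The start regions of the members show the sequence feature for which this family is known. Of the 82 members, 66 were found in the RefSeq promoter table (GRCh38.p14), and in 48 of these (72.7%) the 30 bases around the annotated start held a run of 8 or more pyrimidines (C or T), against 13.7% of all 35116 promoters in the table. Shown are the windows of 3 paralog pairs and of 4 members with large changes below, from 15 bases before the start to 15 bases from the start on, in the direction of transcription, with the longest pyrimidine run in capitals.
RPS27L, chr15:63157463-63157492, minus strand: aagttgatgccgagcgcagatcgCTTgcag
RPS27, chr1:153990747-153990776, plus strand: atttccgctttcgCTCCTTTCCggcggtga
RPL26L1, chr5:172958714-172958743, plus strand: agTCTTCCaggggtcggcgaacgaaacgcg
RPL26, chr17:8383179-8383208, minus strand: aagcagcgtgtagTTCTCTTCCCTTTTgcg
RPL22L1, chr3:170870181-170870210, minus strand: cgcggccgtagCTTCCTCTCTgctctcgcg
RPL22, chr1:6199581-6199610, minus strand: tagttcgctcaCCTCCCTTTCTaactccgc
RPL7A, chr9:133348203-133348232, plus strand: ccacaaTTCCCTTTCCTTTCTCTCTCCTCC
RPL13A, chr19:49487593-49487622, plus strand: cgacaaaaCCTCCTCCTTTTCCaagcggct
RPL3, chr22:39319609-39319638, minus strand: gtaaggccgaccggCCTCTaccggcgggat
RPS6, chr9:19380222-19380251, minus strand: aagcggaagttggCCCTCTTTTCCgtggcg
The longest run was 3 bases in RPS27L against 9 in RPS27, and 6 in RPL26L1 against 14 in RPL26, while RPL22L1 with 10 and RPL22 with 11 were alike. RPL7A had the longest run of those shown, 24 bases, and RPL3 one of 5. The letters CTTTC lay within 20 bases of the start on the transcribed sense strand in 29 of 66 members (43.9%), against 5.64% of all promoters. CCGGAAGT, the core to which GABPA binds, lay on either strand of the window from 250 bases before to 50 after the start in 11 members (16.7%) against 4.14% of all promoters, and AAGATGGC, the core of the YY1 motif, in 7 members (10.6%) against 2.89%. A match of letters describes the sequence and does not show that a factor binds there.

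Together the 82 members made up between 39.5 and 46.3% of all TPM in the libraries with MPP+ and between 30.1 and 33.4% in those without. These ranges come from tables normalized separately and are set side by side without a test. With MPP+, the share was 39.5, 40.2 and 40.4% in the oeMCART1 libraries, against 45.7, 46.3 and 45.9% in the oeNC libraries. These groups did not overlap, and oeNC was also above both hairpin groups. The MPP+ shares were 43.2, 43.2 and 42.9% in shMCART1 and 43.2, 42.7 and 41.8% in shScramble libraries, which overlapped. Without MPP+, the shares were 32.7, 32.2 and 31.5% in oeMCART1 against 32.0, 30.4 and 31.4% in oeNC libraries, and 32.1, 31.7 and 33.4% in shMCART1 against 31.2, 32.1 and 30.1% in shScramble libraries, and both pairs overlapped.

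**Figure D1:**
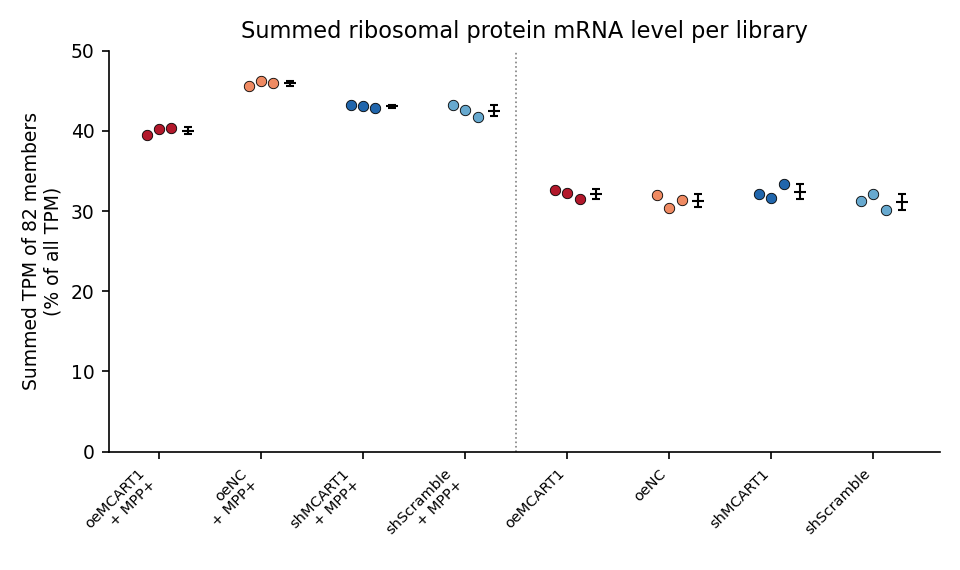
Summed TPM of the 82 ribosomal protein genes as a percentage of all TPM (vertical axis) in each library (points) of the 8 groups, with the mean and SD of 3 libraries beside the points. With MPP+ (left of the dotted line) oeMCART1 libraries lie at 39.5 to 40.4% and oeNC libraries at 45.7 to 46.3%, and without MPP+ all groups lie between 30.1 and 33.4%. The 2 sides of the dotted line were normalized separately.

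RPS2, which sits at the mRNA entry of the small subunit, RPL41, the smallest ribosomal protein, and RPL39, which lines the exit tunnel, had the highest mean levels over the 24 libraries of both tables, at 16842, 15668 and 15667 TPM. These 3 members held the top places in every group, although their order among each other varied, and together they made up between 11.9 and 13.7% of the summed level of the members. At the other end stood the paralogs, with means of 189 TPM for RPL26L1, 162 for RPL22L1, 128 for RPL7L1, 80.7 for RPS27L and 52.1 for RPL39L. The median coefficient of variation of the members within a group was 3.03% in oeMCART1, 3.68% in oeNC, 2.40% in shMCART1 and 3.01% in shScramble libraries with MPP+. Without MPP+ it was 2.60% in oeMCART1, 6.28% in oeNC, 9.44% in shMCART1 and 7.35% in shScramble libraries, a wider spread in the last 3 groups than in any group with MPP+.

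Under MPP+, overexpression of MCART1 came with lower TPM of most ribosomal protein mRNAs, though not with quantile normalization, and higher levels of 5 low-abundance paralogs, of which RPL39L had the opposite sign with median-of-ratios scaling and quantile normalization, and RPL7L1 with median-of-ratios scaling. Each gene was tested with limma on log2(TPM + 1) across all genes, and a gene was called at an adjusted p under 0.05. Of 82 members, 51 fell and 9 rose, against 14.2% of all genes called lower and 46.7% called higher. The median log2 change was -0.17 over the members and 0.26 over all 14895 genes tested. In the large subunit 30 members fell and 6 rose, and in the small subunit 21 fell and 3 rose. The split depends on scaling. With the members left out of the total, 68 fell and 5 rose, beside 20.3% of all genes lower and 37.2% higher. With median-of-ratios scaling 73 fell and 4 rose, beside 29% lower and 26.6% higher. With quantile normalization 25 fell and 20 rose, beside 26.4% lower and 27.8% higher, so that the members were then near the background. Members filled 72 of the 100 highest genes in every MPP+ library. Quantile normalization gives all libraries the same distribution, so it can hide a shared change of the members. Median-of-ratios scaling set the median of all genes at -0.0075 and that of the members at -0.50.

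RPL7A, a large-subunit protein whose introns hold 4 small nucleolar RNA genes, changed most among the members that fell. Its level was 4221, 4248 and 4307 TPM in treated oeMCART1 libraries, against 7668, 7404 and 7452 TPM in treated oeNC libraries, a log2 change of -0.82 ± 0.027 (SE, adjusted p = 8.57e-09). The groups lay far apart and the 3 libraries of each lay close together. RPL13A, which outside the ribosome takes part in silencing of inflammatory mRNAs in myeloid cells, had 3429, 3375 and 3529 TPM in oeMCART1 libraries, against 5406, 5197 and 5384 TPM in oeNC libraries, a change of -0.63 ± 0.038 (SE, adjusted p = 4.57e-07). RPL3, which reaches towards the peptidyl transferase centre, had 3658, 3663 and 3698 TPM in oeMCART1 libraries, against 5652, 5487 and 5262 TPM in oeNC libraries, a change of -0.57 ± 0.031 (SE, adjusted p = 2.96e-07). In each of these genes every oeMCART1 library was below every oeNC library. Proteins around the mRNA entry channel followed. RPS3 had 5198, 5209.8 and 5556 TPM in oeMCART1 libraries, against 7817, 7511 and 8039 TPM in oeNC libraries, a change of -0.55 ± 0.036 (SE, adjusted p = 6.06e-07). RPS9 changed by -0.55 ± 0.041 (SE, adjusted p = 1.38e-06) and RPS10 by -0.43 ± 0.033 (SE, adjusted p = 1.44e-06).

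Among the abundant members the changes were smaller. RPS2 had 17255, 17857 and 18164 TPM in treated oeMCART1 libraries, against 21576, 21024 and 22226 TPM in treated oeNC libraries, a log2 change of -0.28 ± 0.032 (SE, adjusted p = 1.61e-05). RPL41 changed by -0.13 ± 0.033 (SE, adjusted p = 0.00407) and RPS27 by -0.20 ± 0.051 (SE, adjusted p = 0.0045), while RPL39 had a change of -0.083 that was not called. RPLP0, the base of the stalk that recruits elongation factors, fell to 6244, 6190.5 and 6407 TPM in oeMCART1 libraries, against 7148, 7261 and 7208 TPM in oeNC libraries, a change of -0.20 ± 0.033 (SE, adjusted p = 0.000246). Of the MDM2-binding pair, RPL11 fell with a change of -0.17 ± 0.045 (SE, adjusted p = 0.00616), whereas RPL5 had 2586, 2574 and 2387 TPM in oeMCART1 libraries, against 2517, 2549.9 and 2431 TPM in oeNC libraries, and these overlapped. With RPL5 the change was 0.0087 with an adjusted p of 0.844, which does not show equal levels. With quantile normalization the changes of RPL11, RPLP0 and RPL41 turned positive and that of RPS27 was 0.

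The 9 members that rose were RPS27L, RPL26L1, RPL22L1, RPS6, RPL6, RPL7L1, RPL4, RPL39L and RPS27A, so all 5 low-abundance paralogs were among them. RPS27L, a paralog of RPS27 that p53 induces, rose most, with 147, 143 and 157 TPM in treated oeMCART1 libraries, against 45.7, 47.8 and 41.9 TPM in treated oeNC libraries, a log2 change of 1.70 ± 0.12 (SE, adjusted p = 1.17e-06). RPL26L1 had 250.3, 258 and 253 TPM in oeMCART1 libraries, against 162, 155 and 155 TPM in oeNC libraries, a change of 0.68 ± 0.055 (SE, adjusted p = 2.16e-06). RPL22L1, whose expression RPL22 represses in mice, had 320.1, 306 and 308 TPM in oeMCART1 libraries, against 211, 208 and 165 TPM in oeNC libraries, a change of 0.68 ± 0.077 (SE, adjusted p = 1.65e-05). All 3 stood apart from the control without overlap. RPL22 itself had a change of -0.12 that was not called. RPS6, the substrate of the S6 kinases, had 4855, 4531 and 4368 TPM in oeMCART1 libraries, against 3446, 3483 and 3250.3 TPM in oeNC libraries, a change of 0.43 ± 0.046 (SE, adjusted p = 1.06e-05), and RPL6 changed by 0.36 ± 0.046 (SE, adjusted p = 3.73e-05). RPL7L1, known mainly from large-subunit assembly, changed by 0.23 ± 0.051 (SE, adjusted p = 0.00194). RPL39L, a paralog prominent in testis, changed by 0.19 ± 0.059 (SE, adjusted p = 0.0136).

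**Figure D2:**
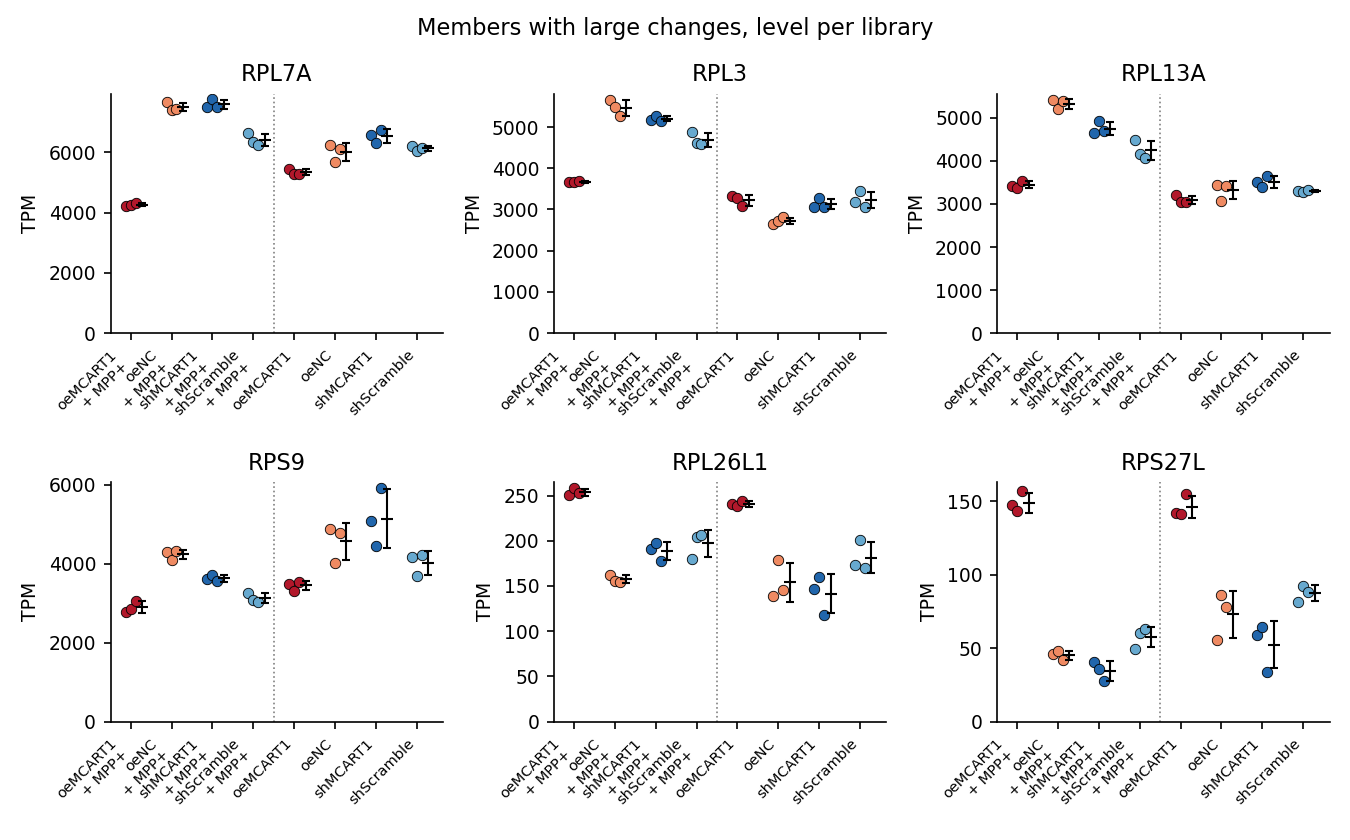
TPM (vertical axis) of RPL7A, RPL3, RPL13A, RPS9, RPL26L1 and RPS27L in each library (points) of the 8 groups, with the mean and SD of 3 libraries beside the points. With MPP+ (left of the dotted line) RPL7A lies at 4221 to 4307 TPM in oeMCART1 libraries and 7404 to 7668 TPM in oeNC libraries, and RPS27L at 143 to 157 TPM in oeMCART1 libraries and 41.9 to 47.8 TPM in oeNC libraries.

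Transcript GC content moved with these changes. After each library's trend on GC content was removed, 72 members were lower and 2 higher, against 21.5% of all genes lower and 26.1% higher, and the 2 that stayed higher were RPS27L at 1.09 and RPL26L1 at 0.34. RPL7A stood at -1.02, RPL13A at -0.73 and RPL3 at -0.65 in that fit. RPL22L1 stood at 0.025 and was no longer called, and RPS6, RPL6 and RPL7L1 had the opposite sign. Several other measures differed between the same groups. Genes of mitochondrial DNA held 1.57% of TPM in treated oeMCART1 libraries and 0.901% in treated oeNC libraries, and 13951 and 13275 genes reached 1 TPM on average. The 6 fibroblast and mesenchyme markers summed to between 3.25 and 4.30 TPM in oeMCART1 libraries and between 11.1 and 13.5 TPM in oeNC libraries, with COL1A2 at or near 0. The 8 blood and bone marrow markers summed to between 9.60 and 15.2 TPM in oeMCART1 libraries and between 20.5 and 27.9 TPM in oeNC libraries, mostly from HBA1, while PTPRC and HBB stayed at or near 0. The 12 neuroblastoma markers summed to between 30.6 and 32.9 TPM in oeMCART1 libraries and between 32.3 and 39.9 TPM in oeNC libraries, and these overlapped. Of the 6 neuroblastoma markers tested singly, 2 were called higher and 1 lower, with a median log2 change of 0.032. The part of these measures in the result was not tested.

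Knockdown of MCART1 under MPP+ came with changes in both directions, led by a fall of RPS27L. Of 82 members, 15 rose and 17 fell, against 10.8% of all genes called higher and 22.2% called lower, and the median log2 change was 0.0055 over the members and -0.078 over all genes. The split depends on scaling. Median-of-ratios scaling gave 33 higher and 8 lower, beside 17.4% of all genes higher and 15% lower. Removal of the GC trend gave 24 higher and 5 lower, beside 13.3% of all genes higher and 14.5% lower. RPS27L changed most, with 40.9, 35.6 and 27.5 TPM in treated shMCART1 libraries, against 49.7, 60.4 and 62.8 TPM in treated shScramble libraries, a log2 change of -0.73 ± 0.12 (SE, adjusted p = 0.00139). It was called lower after removal of the GC trend too, at -0.45. RPS3A of the small-subunit platform had 4676, 3878 and 4749 TPM in shMCART1 libraries, against 5367, 6107 and 5821 TPM in shScramble libraries, a change of -0.38 ± 0.082 (SE, adjusted p = 0.00456). RPS6 had 3179, 3201 and 3375 TPM in shMCART1 libraries, against 3979.9, 4186 and 4358 TPM in shScramble libraries, a change of -0.36 ± 0.046 (SE, adjusted p = 0.000296). None of these overlapped between the groups. RPL7 changed by -0.37 ± 0.077 (SE, adjusted p = 0.00432), RPL6 by -0.34 ± 0.046 (SE, adjusted p = 0.000397) and RPL39L by -0.33 ± 0.059 (SE, adjusted p = 0.0017). RPL5 changed by -0.23 ± 0.035 (SE, adjusted p = 0.000657), RPL26 by -0.20 ± 0.049 (SE, adjusted p = 0.00946) and RPL22L1 by -0.26 ± 0.077 (SE, adjusted p = 0.0234). After removal of the GC trend RPL22L1 stood at 0.046 and RPL5 at -0.053, and neither was called.

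In the other direction, RPL7A had 7507, 7773 and 7492 TPM in treated shMCART1 libraries, against 6625, 6349 and 6251 TPM in treated shScramble libraries, a log2 change of 0.24 ± 0.027 (SE, adjusted p = 0.000151). Every shMCART1 library was above every shScramble library. RPS9 changed by 0.22 ± 0.041 (SE, adjusted p = 0.00221), RPL35 by 0.20 ± 0.049 (SE, adjusted p = 0.00981), RPL13 by 0.19 ± 0.059 (SE, adjusted p = 0.0316), RPL36 by 0.17 ± 0.060 (SE, adjusted p = 0.0498) and RPS2 by 0.14 ± 0.032 (SE, adjusted p = 0.00595). RPL7A, RPL3, RPL13A, RPS9 and RPS10 were called higher in knockdown cells and lower in overexpressing cells, each against its own control and both with MPP+, a set picked after its values were seen. The count depends on single libraries. Without shMCART1 replicate 2, shScramble replicate 2 or shScramble replicate 3, 9 members were higher, beside 7.78%, 7.78% and 8.36% of all genes. Without shScramble replicate 2, 11 were lower, beside 16.4% of all genes. Beside these changes, the fibroblast and mesenchyme markers summed to between 13.9 and 15.4 TPM in treated shMCART1 libraries and between 8.45 and 11.3 TPM in treated shScramble libraries. The neuroblastoma markers summed to between 39.7 and 41.8 TPM in treated shMCART1 libraries and between 34.9 and 38.0 TPM in treated shScramble libraries. Of the 6 neuroblastoma markers tested singly, however, 1 was called higher and 2 lower, with a median log2 change of 0.056. The blood and bone marrow markers, which overlapped, summed to between 19.1 and 25.4 TPM in treated shMCART1 and between 20.4 and 21.6 TPM in treated shScramble libraries. The part of these marker lists was not tested.

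Without MPP+, overexpression came with changes of members in both directions. Of 82, 34 rose and 20 fell, against 33.5% of all genes called higher and 14.7% called lower, and the median log2 change was 0.078 over the members and 0.16 over all genes. Median-of-ratios scaling turned this split to 21 higher and 30 lower, beside 26.2% of all genes higher and 25.9% lower. Leaving mitochondrial DNA genes out of the total gave 30 higher and 29 lower, beside 29.5% of all genes higher and 18.9% lower. Mitochondrial DNA genes held 4.90% of TPM in oeMCART1 libraries and 9.16% in oeNC libraries. RPS27L had 142, 142 and 155 TPM in untreated oeMCART1 libraries, against 55.4, 85.9 and 77.8 TPM in untreated oeNC libraries, a log2 change of 1.01 ± 0.21 (SE, adjusted p = 0.00518). RPL7 had 2125, 2100.4 and 2214 TPM in oeMCART1 libraries, against 1016, 1445 and 1191 TPM in oeNC libraries, a change of 0.83 ± 0.23 (SE, adjusted p = 0.013). RPL26, at the rim of the exit tunnel, had 5278, 5111 and 5198 TPM in oeMCART1 libraries, against 3006, 3616 and 2999.8 TPM in oeNC libraries, a change of 0.70 ± 0.13 (SE, adjusted p = 0.00451). The oeMCART1 libraries lay above the oeNC libraries in all 3 cases, with a wider spread in oeNC. RPL7L1 changed by 0.81 ± 0.18 (SE, adjusted p = 0.0066), RPS24 by 0.72 ± 0.16 (SE, adjusted p = 0.00605), RPL17 by 0.70 ± 0.15 (SE, adjusted p = 0.00585) and RPS6 by 0.66 ± 0.11 (SE, adjusted p = 0.0041). RPL5 changed by 0.63 ± 0.12 (SE, adjusted p = 0.00472) and RPL11 by 0.49 ± 0.099 (SE, adjusted p = 0.005). RPL22 and RPL22L1 both rose, by 0.50 and 0.55, and RPL26L1, RPL41 and RPL39 rose by 0.65, 0.26 and 0.25. After the GC trend was removed, 9 members were higher and 9 lower, beside 7.77% of all genes higher and 7.11% lower. RPL22, RPL22L1 and RPL39 then had the opposite sign.

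Members that fell in untreated oeMCART1 cells were led by RPL13, with 3187, 3151 and 2969 TPM in oeMCART1 libraries, against 4466, 3828 and 4347 TPM in oeNC libraries, a log2 change of -0.44 ± 0.11 (SE, adjusted p = 0.00829). RPL28 had 1052, 1027 and 1077 TPM in oeMCART1 libraries, against 1503, 1316 and 1466 TPM in oeNC libraries, a change of -0.44 ± 0.11 (SE, adjusted p = 0.00946). RPL36 changed by -0.43 ± 0.12 (SE, adjusted p = 0.013), RPL8 by -0.42 ± 0.098 (SE, adjusted p = 0.00714), RPS9 by -0.40 ± 0.10 (SE, adjusted p = 0.0103) and RPS2 by -0.36 ± 0.077 (SE, adjusted p = 0.00566). For each of these the groups did not overlap. Fewer were lower without some libraries, as over all genes. Without oeNC replicate 1 there were 10, beside 7.25% of all genes lower. Without oeNC replicate 3 there were 11, beside 7.86%, and without oeMCART1 replicate 2 there were 13, beside 8.62%.

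Knockdown without MPP+ gave 25 members higher and 21 lower, against 8.64% of all genes called higher and 25.6% called lower, with a median log2 change of -0.0047 over the members and -0.15 over all genes. Median-of-ratios scaling gave 33 higher and 10 lower, beside 20.1% of all genes higher and 20.1% lower. RPL7 had 1108, 1339.6 and 619 TPM in untreated shMCART1 libraries, against 1671, 2066 and 1586 TPM in untreated shScramble libraries, a log2 change of -0.86 ± 0.23 (SE, adjusted p = 0.0213). RPS27L had 58.9, 64.0 and 34.1 TPM in shMCART1 libraries, against 81.5, 92.4 and 88.1 TPM in shScramble libraries, a change of -0.78 ± 0.21 (SE, adjusted p = 0.0218). RPL22L1 had 76.1, 76.5 and 59.6 TPM in shMCART1 libraries, against 106, 136 and 104 TPM in shScramble libraries, a change of -0.70 ± 0.15 (SE, adjusted p = 0.0152). In all 3 genes shMCART1 replicate 3 was the lowest library. RPL17 changed by -0.61 ± 0.15 (SE, adjusted p = 0.0184), RPL7L1 by -0.56 ± 0.18 (SE, adjusted p = 0.0368) and RPS24 by -0.53 ± 0.16 (SE, adjusted p = 0.0266). RPS6, RPL5, RPL26, RPL26L1 and RPL11 also fell, with changes of -0.46, -0.45, -0.47, -0.36 and -0.28 on the log2 scale.

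RPL36 led the members that rose in untreated shMCART1 cells, with 2743, 2369.8 and 3418 TPM in shMCART1 libraries, against 2248, 1934 and 2300.2 TPM in shScramble libraries, a log2 change of 0.38 ± 0.12 (SE, adjusted p = 0.0303). RPS2 had 16881, 15756 and 19153 TPM in shMCART1 libraries, against 14030.0, 12419.6 and 13633 TPM in shScramble libraries, a change of 0.37 ± 0.077 (SE, adjusted p = 0.0144). RPS29 changed by 0.35 ± 0.097 (SE, adjusted p = 0.0229), RPS9 by 0.35 ± 0.10 (SE, adjusted p = 0.0279), RPL35 by 0.32 ± 0.092 (SE, adjusted p = 0.0261), RPS16 by 0.32 ± 0.089 (SE, adjusted p = 0.0241) and RPLP0 by 0.25 ± 0.057 (SE, adjusted p = 0.0163). In RPL36 and RPS2 shMCART1 replicate 3 was the highest library. These calls rest on few libraries, and the calls over all genes fell as well. Without shScramble replicate 2, 0 members were called, beside 0.00684% of all genes higher and 0.00684% lower. Without shMCART1 replicate 3, 2 were higher and 0 lower, beside 0.91% and 5.73% of all genes. Without shMCART1 replicate 1, 5 were higher and 10 lower, beside 2.44% and 13%. The fibroblast and mesenchyme markers summed to between 24.1 and 29.8 TPM in shMCART1 libraries and between 17.6 and 22.9 TPM in shScramble libraries. The neuroblastoma markers summed to between 48.0 and 51.3 TPM in shMCART1 libraries and between 43.9 and 47.5 TPM in shScramble libraries, without overlap. Of the 6 neuroblastoma markers tested singly, however, 0 were called higher and 1 lower, with a median log2 change of 0.00017. The blood and bone marrow markers summed to between 32.3 and 43.3 TPM in shMCART1 and between 35.0 and 47.0 TPM in shScramble libraries. The part of these marker lists was not tested. Without shScramble replicate 1 there were 16 higher, beside 5.07% of all genes, and without shScramble replicate 3 there were 15 higher, beside 6.87%. A fit of only the 2 groups called 0 members and 0% of all genes. Removal of the GC trend left 5 higher and 1 lower, beside 3.26% of all genes higher and 5.02% lower.

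Whether the response differed with MPP+ was tested for each gene as the effect with MPP+ minus the effect without, over all 24 libraries. For overexpression, 38 members had a lower effect with MPP+ and 0 a higher one, against 5.24% of all 15653 genes lower and 12.6% higher. At an unadjusted p under 0.05, 2 were higher and 46 lower, but the share of all genes at that threshold was not counted. The median difference was -0.23 over the members and 0.054 over all genes. RPS25, a small-subunit protein used by viral internal ribosome entry sites, differed most, by -0.91 ± 0.10 (SE, adjusted p = 8.06e-06). With MPP+ it had 3798, 3965 and 3707 TPM in oeMCART1 libraries, against 5076, 5380.0 and 4811 TPM in oeNC libraries. Without MPP+ it had 3805, 3825 and 3638 TPM in oeMCART1 libraries, against 2557, 2792 and 2626 TPM in oeNC libraries. The oeMCART1 libraries lay below the oeNC libraries with MPP+ and above them without. RPL7 differed by -0.83 ± 0.26 (SE, adjusted p = 0.0314) and RPL17 by -0.82 ± 0.17 (SE, adjusted p = 0.00172), both higher in untreated oeMCART1 cells, with effects of 0.0062 and -0.12 under MPP+. RPL26, RPL11, RPL5, RPL22, RPL41, RPL39 and RPS27 had differences of -0.66, -0.65, -0.62, -0.62, -0.39, -0.33 and -0.29 and were called. RPS27L had a difference of 0.69 ± 0.26 (SE, adjusted p = 0.0737), which was not called.

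For knockdown, 2 members had a higher and 2 a lower effect with MPP+, against 1.72% of all genes higher and 2.15% lower. At an unadjusted p under 0.05, 14 were higher and 13 lower, again without a count over all genes. RPS25 differed by 0.38 ± 0.10 (SE, adjusted p = 0.0427) and RPL24, which bridges the subunits, by 0.25 ± 0.065 (SE, adjusted p = 0.0368). RPL10, which completes the large subunit late in its assembly, differed by -0.25 ± 0.058 (SE, adjusted p = 0.0215), and RPS14, the gene whose single-copy loss underlies the anaemia of the 5q deletion, by -0.17 ± 0.047 (SE, adjusted p = 0.0457). In untreated cells RPS25 had 2559.8, 2781 and 2276 TPM in shMCART1 libraries, against 2905, 3601 and 2935 TPM in shScramble libraries, and with MPP+ 4964, 4950.1 and 5019 TPM in shMCART1 libraries, against 4863, 4796 and 4593 TPM in shScramble libraries. Both counts are near the background and rest on single libraries, with 0 called in either direction without shMCART1 replicate 3 or shScramble replicate 2 of the untreated cells, or without replicate 1 of either treated group. In these fits 0.796 to 1.04% of all genes were higher and 0.91 to 1.6% lower. Without untreated shMCART1 replicate 2 there were 13 higher and 12 lower, beside 10.5% of all genes higher and 5.27% lower. Without untreated shScramble replicate 3 there were 5 higher and 1 lower, beside 1.44% and 2.43%. Without untreated shMCART1 replicate 1, or without replicate 2 or 3 of either treated group, 0 were higher and 1 lower. All genes were then 0.841 to 1.18% higher and 0.86 to 1.6% lower.

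As ratios within a library, several paralogs stood differently to their partners in the groups compared. RPS27L stood at 1.03 ± 0.0945% of RPS27 in treated oeMCART1 libraries and 0.270 ± 0.0144% in treated oeNC libraries, and at 0.202 ± 0.0355% in treated shMCART1 libraries and 0.358 ± 0.0492% in treated shScramble libraries (SD, n = 3 each). Without MPP+ the ratio was 1.33 ± 0.0820% in oeMCART1 and 0.711 ± 0.196% in oeNC libraries, and 0.521 ± 0.163% in shMCART1 and 0.910 ± 0.0804% in shScramble libraries. None of these 4 pairs of groups overlapped. RPL22L1 stood at 55.9 ± 2.25% of RPL22 in treated oeMCART1 libraries and 32.0 ± 1.73% in treated oeNC libraries, without overlap. It stood at 26.1 ± 0.698% in treated shMCART1 and 30.5 ± 0.412% in treated shScramble libraries, also without overlap. Without MPP+ it was 15.2 ± 0.517% in oeMCART1 and 14.7 ± 2.16% in oeNC libraries, which overlapped, and 11.8 ± 0.953% in shMCART1 and 15.6 ± 1.26% in shScramble libraries, which did not. RPL26L1 stood at 3.20 ± 0.147% of RPL26 in treated oeMCART1 and 2.05 ± 0.128% in treated oeNC libraries, and its other 3 pairs of groups overlapped. RPL39L stood at 0.400 ± 0.0256% of RPL39 in treated oeMCART1 and 0.330 ± 0.0282% in treated oeNC libraries, and at 0.318 ± 0.0224% in treated shMCART1 and 0.401 ± 0.00912% in treated shScramble libraries. Without MPP+ it ran the other way for overexpression, with 0.250 ± 0.0162% in oeMCART1 and 0.287 ± 0.00747% in oeNC libraries, again without overlap. RPL7L1 stood at 6.32 ± 0.218% of RPL7 in treated oeMCART1 and 5.41 ± 0.439% in treated oeNC libraries, at 6.27 ± 0.709% in treated shMCART1 and 4.98 ± 0.215% in treated shScramble libraries, and at 11.1 ± 2.11% in untreated shMCART1 and 8.99 ± 0.0382% in untreated shScramble libraries, so with MPP+ it was higher in both the overexpressing and the knockdown libraries. Over 20 such comparisons, a two-sided exact permutation test gave p = 0.1 wherever groups did not overlap, the smallest value that 3 against 3 libraries allow, so none could reach 0.05. Since these ratios were looked at because of their levels, they describe the libraries. Reads of paralogs and of the many processed pseudogenes of this family can be split differently by different counting programs, which makes the ratios uncertain.

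**Figure D3:**
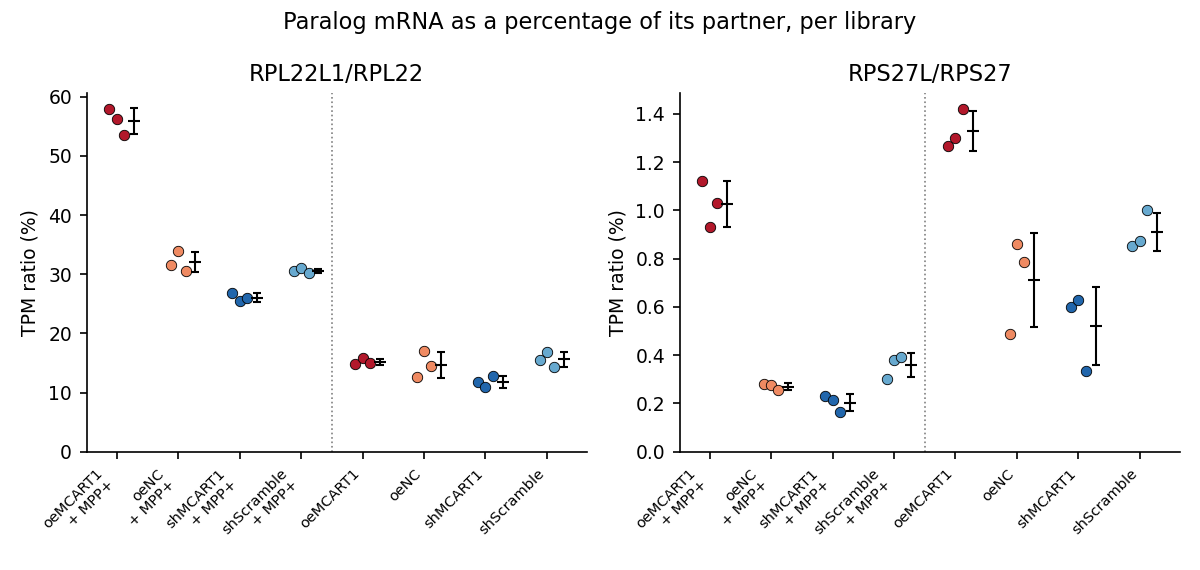
TPM of RPL22L1 as a percentage of RPL22 (left) and of RPS27L as a percentage of RPS27 (right) in each library (points) of the 8 groups, with the mean and SD of 3 libraries beside the points. With MPP+ (left of the dotted line) the oeMCART1 libraries lie highest in both panels, at 53.5 to 58.0% and 0.932 to 1.12%, against 30.5 to 33.9% and 0.254 to 0.281% in the oeNC libraries.

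Across the members, the changes were ordered by the GC content of the transcripts. The Spearman correlation of change and GC content over 82 members, which share their libraries, was -0.56 for treated and -0.78 for untreated overexpression, and 0.67 for treated and 0.81 for untreated knockdown. Over all genes with a GC value it was -0.60, -0.81, 0.48 and 0.78 in the same order. In untreated knockdown cells, 21 of 27 GC-rich members rose and 0 fell, and 16 of 28 GC-poor members fell and 1 rose. Other genes of the same GC ranges were called higher in 19.4% and lower in 1.84% of cases where GC-rich, and lower in 55.8% and higher in 0.209% where GC-poor. Untreated overexpression ran the other way, with 15 of 27 GC-rich members lower and 1 higher, and 21 of 28 GC-poor members higher and 1 lower, beside 33.7% lower among other GC-rich genes and 72.3% higher among other GC-poor genes. In treated overexpression 25 of 27 GC-rich members fell and 0 rose, beside 28.5% lower and 24.3% higher among other GC-rich genes. Of the GC-poor members 7 of 28 rose and 9 fell, beside 73.1% higher and 1.79% lower among other GC-poor genes. With treated knockdown, 12 of 27 GC-rich members rose and 11 of 28 GC-poor members fell, beside 20.1% and 37.9% of the other genes.

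**Figure D4:**
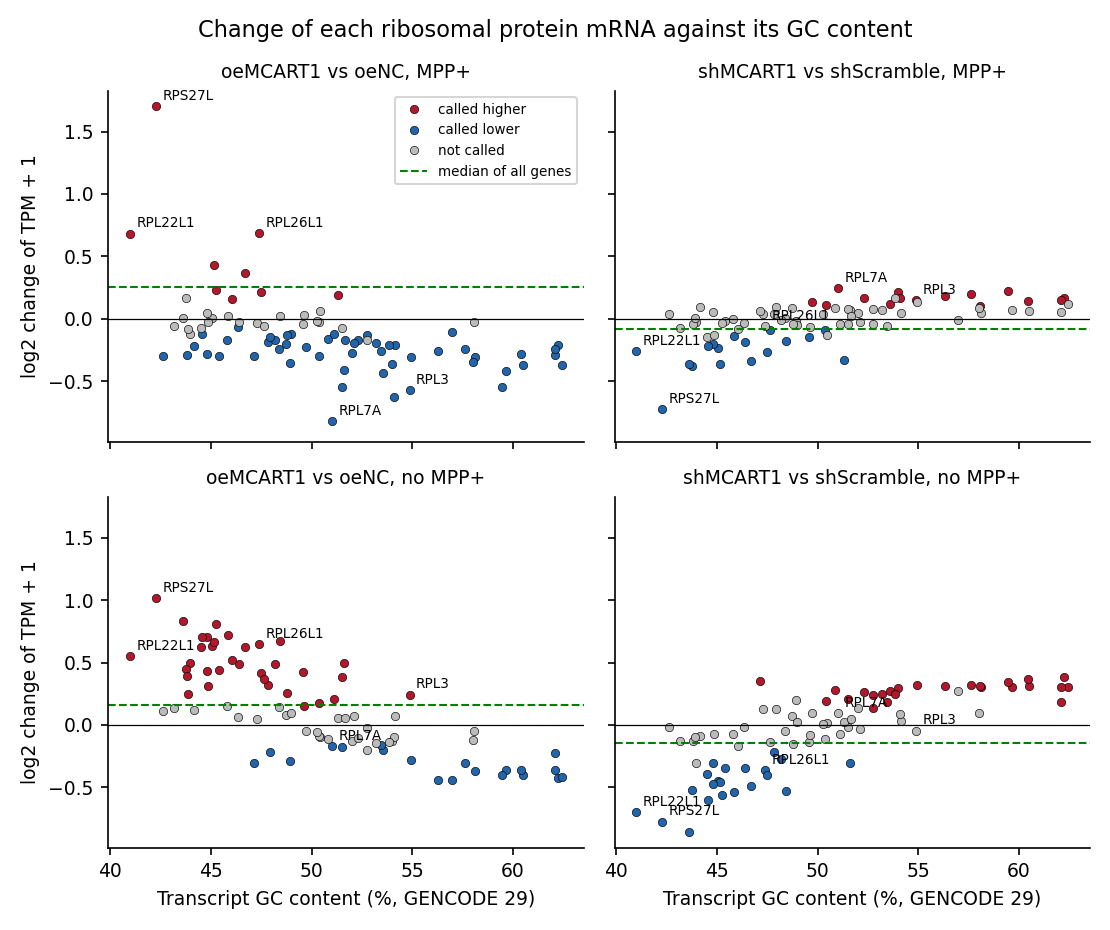
Log2 change of TPM + 1 of each of the 82 members (vertical axis) against the GC content of its transcript in percent (horizontal axis), for the 4 comparisons. Red points were called higher, blue lower and grey neither, and the dashed line is the median of all genes tested. In treated oeMCART1 cells most points lie below the median of all genes (0.26) at every GC content, and in untreated knockdown cells they run from low at GC-poor to high at GC-rich transcripts.

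Between the control groups themselves the members also differed under MPP+. In oeNC against shScramble cells, both with MPP+, 45 members were higher and 13 lower, against 5.13% of all genes called higher and 42.8% called lower. RPS9 was higher by 0.44 ± 0.041 (SE, adjusted p = 6.24e-05) and RPL13A by 0.33 ± 0.038 (SE, adjusted p = 9.58e-05), with RPS2 at 0.26. RPL7 changed by -0.35 ± 0.077 (SE, adjusted p = 0.00336) and RPS27L by -0.34 ± 0.12 (SE, adjusted p = 0.0403). Median-of-ratios scaling gave 73 higher and 0 lower, beside 22.3% of all genes higher and 16.6% lower. Removal of the GC trend gave the same counts, beside 12.6% of all genes higher and 10.6% lower. Quantile normalization, which can hide a shared change of the members, gave 17 higher and 15 lower, near the 16.5% and 16.6% of all genes. Without shScramble replicate 2 only 8 members were lower, beside 36.5% of all genes. Without MPP+, 0 members were higher and 2 lower by limma (RPL14 and RPS4X, each at -0.30), against 0.197% of all genes higher and 1.09% lower. At an unadjusted p under 0.05, 7 were higher and 19 lower, and the share of all genes at that threshold was not counted. Without oeNC replicate 2 there were 3 higher and 10 lower, beside 0.827% of all genes higher and 14.6% lower. Without any other of these 6 libraries 0 members were called, beside at most 0.082% of all genes higher and 0.143% lower. The oeNC libraries enter both this comparison and that of overexpression, so the 2 are not independent. The mean level of RPL7A with MPP+ was 4259 ± 44.2 TPM in oeMCART1, 7508 ± 141 in oeNC, 7591 ± 158 in shMCART1 and 6409 ± 194 TPM in shScramble libraries, so the oeMCART1 libraries were also below both hairpin groups. The corresponding levels of RPS27L were 149 ± 6.93 TPM in oeMCART1, 45.2 ± 2.98 in oeNC, 34.7 ± 6.75 in shMCART1 and 57.6 ± 6.95 TPM in shScramble libraries.

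The members were also split by features that the symbol rule did not use. In treated overexpression, the median log2 change was -0.18 for the 28 members whose introns hold a small nucleolar RNA gene in GENCODE 29 and -0.17 for the 54 others. It was -0.17 for the 48 members with a pyrimidine run of 8 or more at the start and -0.18 for the 18 with a shorter run. Members with 10 or more annotated pseudogenes had a median change of -0.10 and a median GC content of 46.4%, against -0.19 and 51.8% for those with fewer. In untreated overexpression the same split gave 0.25 against -0.080, and in untreated knockdown -0.083 against 0.16.

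Of the other genes of the pathway, the 41 ribosome assembly factors were mostly higher in treated overexpression, with 33 higher and 3 lower and a median log2 change of 0.47, beside 0.26 over all genes. The counts of this and the next lists stand beside 46.7% of all genes called higher and 14.2% called lower. UTP20, a large processome scaffold, had 4.61 ± 0.490 TPM in oeMCART1 and 1.17 ± 0.312 TPM in oeNC libraries, a change of 1.38 ± 0.13 (SE, adjusted p = 4.33e-06). GAR1, a core protein of H/ACA ribonucleoproteins, had 119 ± 7.0 TPM in oeMCART1 and 74.0 ± 4.13 TPM in oeNC libraries, a change of 0.68 ± 0.060 (SE, adjusted p = 3.32e-06). BOP1, of the PeBoW complex, changed by -0.55 ± 0.048 (SE, adjusted p = 2.97e-06). Of 17 genes of ribosomal RNA transcription, 11 were higher and 2 lower. RRN3, which brings RNA polymerase I to its promoter, had 20.2 ± 1.69 TPM in oeMCART1 and 8.81 ± 1.11 TPM in oeNC libraries, a change of 1.11 ± 0.098 (SE, adjusted p = 3.5e-06). Of 17 TOP mRNAs that encode no ribosomal protein, 6 were higher and 6 lower, EEF2 at -0.85 ± 0.058 (SE, adjusted p = 7.72e-07) and EEF1G at -0.51 ± 0.031 (SE, adjusted p = 4.83e-07) among the lower and TPT1 at 0.52 ± 0.037 (SE, adjusted p = 1.11e-06) among the higher. Of 21 measured regulators of ribosomal protein mRNAs, 15 were higher and 2 lower, with EIF4EBP2, an inhibitor of cap-dependent translation, at 0.81 ± 0.086 (SE, adjusted p = 1.06e-05). MDM2, the binding partner of RPL5 and RPL11, had 26.5 ± 1.03 TPM in oeMCART1 and 8.19 ± 1.51 TPM in oeNC libraries, a change of 1.59 ± 0.13 (SE, adjusted p = 2.17e-06). It belongs to a list of ribosomal protein importers, chaperones and p53 links, of which 8 of 12 were higher and 0 lower. Among the 4 ribosome genes outside the rule, RPL36AL was higher by 0.32 ± 0.060 (SE, adjusted p = 0.000669), while RACK1 was lower.

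In treated knockdown cells, 5 of 41 assembly factors were higher and 24 lower, with a median log2 change of -0.26, beside -0.078 over all genes, of which 10.8% were called higher and 22.2% lower. DKC1, the H/ACA pseudouridine synthase, had 107 ± 10.4 TPM in shMCART1 and 162 ± 4.34 TPM in shScramble libraries, a change of -0.59 ± 0.066 (SE, adjusted p = 0.00016). Genes of ribosomal RNA transcription counted 1 higher and 9 lower of 17, and other TOP mRNAs 3 higher and 6 lower of 17. LARP1, which binds TOP tracts, had 44.9 ± 3.19 TPM in shMCART1 and 67.5 ± 1.37 TPM in shScramble libraries, a change of -0.58 ± 0.060 (SE, adjusted p = 0.000109), and EIF4EBP2 changed by -1.46 ± 0.086 (SE, adjusted p = 8.76e-06). MDM2 had 6.03 ± 0.756 TPM in shMCART1 and 12.5 ± 1.82 TPM in shScramble libraries, a change of -0.93 ± 0.13 (SE, adjusted p = 0.000445). Without MPP+, 22 assembly factors were higher and 9 lower in oeMCART1 cells, with DDX21, a nucleolar helicase, at 1.24 ± 0.19 (SE, adjusted p = 0.0041), and 3 were higher and 18 lower in shMCART1 cells, with NMD3, the export adaptor of the large subunit, at -1.28 ± 0.24 (SE, adjusted p = 0.0139). The other TOP mRNAs counted 11 higher and 4 lower in untreated oeMCART1 cells and 4 higher and 11 lower in untreated shMCART1 cells, with NPM1, a nucleolar chaperone, at 1.10 ± 0.17 (SE, adjusted p = 0.0041) in the oeMCART1 cells and TPT1 at -0.60 ± 0.12 (SE, adjusted p = 0.0144) in the shMCART1 cells. All genes counted 33.5% higher and 14.7% lower in untreated oeMCART1 cells, and 8.64% higher and 25.6% lower in untreated shMCART1 cells.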

How the data were processed

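RNA-seq libraries of 24 samples, 3 in each of 8 groups, were analysed from 2 deposited tables of TPM, one for untreated and one for MPP+ cells. Per the labels' protocols, RNA was extracted with TRIzol, captured with oligo-dT and made into strand-specific libraries with a SMARTER kit. The authors deposited TPM values, while no aligner, counter or annotation is named (not given in the sources used here). The submitters' processing notes name GRCh38, GRCm38 and mm10 with no role. The tables were normalized separately, so tests were run within a table, and TPM keep no depth. Entries without a gene identifier, 25 of 63266 in the untreated and 42 of 36783 in the MPP+ table, were left out and held 0% of TPM.

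Genes reaching 1 TPM in 3 or more libraries were fitted by limma 3.58.1 (trended empirical Bayes, R 4.3.3) on log2(TPM + 1). Each fit held the 4 groups of its table, and a fold change understates that of low genes. Differences between MPP+ and untreated effects were fitted over the 24 libraries. P-values were adjusted by Benjamini-Hochberg over all genes tested and called under 0.05. The script was checked on simulated data. Transcript GC content, length, pseudogene and small nucleolar RNA counts were taken from GENCODE 29, possibly another annotation than the authors used, and start sequences from RefSeq (GRCh38.p14). GC trends were removed per library with splines of 5 degrees of freedom.

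The genes named are, per comparison, up to 6 called members each way with the largest change and no overlap between groups (up to 3 each way for differences, without the overlap condition), members chosen for their role, the 3 most abundant members, and up to 3 called genes of smallest p per list. Some genes that this rule names are not reported here. Members and lists were chosen with earlier results of these data known. Alternatives were another pseudocount, filters, scalings, GC and length trends, a replicate block, fits of the compared groups alone and leaving out each library.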

Additional observations from a re-analysis of the deposited data

Results flagged for a closer look

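The effects of overexpression with and without MPP+ differed by a test of the difference itself (limma, adjusted over all genes). The effect with MPP+ was lower in 38 of 82 members and higher in 0, beside 5.24% of all genes lower and 12.6% higher. The difference was -0.91 for RPS25, -0.83 for RPL7, -0.82 for RPL17, -0.66 for RPL26, -0.65 for RPL11, -0.62 for RPL5, -0.62 for RPL22, -0.39 for RPL41, -0.33 for RPL39 and -0.29 for RPS27, all on the log2 scale. For knockdown, 2 of 82 members were called higher and 2 lower with MPP+, near the 1.72% and 2.15% of all genes called. They had differences of 0.38 for RPS25, 0.25 for RPL24, -0.25 for RPL10 and -0.17 for RPS14. None of the 4 was called without untreated shMCART1 replicate 3, without untreated shScramble replicate 2, or without replicate 1 of either treated group. In these fits 0.796 to 1.04% of all genes were higher and 0.91 to 1.6% lower.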

How the results depend on the processing

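Counts are given as members higher, then lower. Percentages in brackets are the shares of all genes called in the same direction. Untreated knockdown (25 and 21) gave 0 and 1 (0.839% and 3.08%) with no filter and 10 lower (20.1%) with median-of-ratios scaling. It gave 5 and 1 (3.26% and 5.02%) with GC trends removed and 12 and 3 (4.35% and 5.3%) with GC and length trends removed. Only the compared groups in the fit gave 0 and 0 (0% and 0%). With 1 library left out it gave 0 to 29 (0.00684 to 13.2%) and 0 to 22 (0.00684 to 36.4%). Untreated overexpression (34 and 20) gave 21 higher (26.2%) with median-of-ratios scaling and 11 lower (5.1%) with no filter. It gave 9 and 9 (7.77% and 7.11%) without the GC trend, and 19 and 9 (7.98% and 8%) without GC and length trends. With 1 library left out it gave 27 to 34 (20.1 to 37.1%) and 10 to 27 (7.25 to 15.5%). Treated knockdown (15 and 17) gave 7 and 11 (3.81% and 7.52%) with no filter and 33 and 8 (17.4% and 15%) with median-of-ratios scaling. It gave 24 and 5 (13.3% and 14.5%) without the GC trend and 5 lower (14.6%) without both trends. With 1 library left out it gave 9 to 19 (7.78 to 9.57%) and 11 to 16 (14.8 to 21.6%). Treated overexpression (9 and 51) gave 4 higher (26.6%) with median-of-ratios scaling and 20 and 25 (27.8% and 26.4%) with quantile normalization. It gave 5 higher (37.2%) without the members in the total, 2 (26.1%) without the GC trend and 3 (25.8%) without both trends. With 1 library left out it gave 8 to 9 (42.4 to 45.8%) and 48 to 55 (12.7 to 13.7%).
For oeNC against shScramble without MPP+ (0 and 2), the lower count was 0 with no filter (0.133%), median-of-ratios scaling (0.646%) and only the compared groups (0.156%). It was also 0 without mitochondrial genes in the total (0.313%) and without both trends (3.52%), and 1 with quantile normalization (0.612%). This comparison gave 1 and 0 (3.37% and 3.98%) without the GC trend. With 1 library left out it gave 0 to 3 (0.0137 to 0.827%) and 0 to 10 (0.0273 to 14.6%). With MPP+ (45 and 13), that comparison gave 73 and 0 (22.3% and 16.6%) with median-of-ratios scaling and 17 higher (16.5%) with quantile normalization. It gave 73 and 0 (12.6% and 10.6%) without the GC trend and 68 and 0 (12.3% and 10.2%) without both trends. It gave 8 lower (16.5%) with no filter and 7 lower (34.6%) without the members in the total. With 1 library left out it gave 41 to 44 (3.64 to 4.99%) and 8 to 14 (34.3 to 41.4%). The difference of knockdown effects (2 and 2) gave 0 and 0 with no filter (0.612% and 0.837%), median-of-ratios scaling (1.92% and 2.36%) or only the compared groups (0.358% and 0.396%). It gave 1 and 1 without the members in the total (1.72% and 2.5%) or without the GC trend (3.23% and 4.01%). It gave 1 lower without both trends (4.69%) or with quantile normalization (3.28%). With 1 library left out it gave 0 to 13 (0.796 to 10.5%) and 0 to 12 (0.86 to 5.27%). The difference of overexpression effects (0 and 38) gave 6 higher (8.98%) with quantile normalization, 3 (16.4%) without mitochondrial genes and 2 (12.6%) with only the compared groups. It gave 1 higher without the GC trend (13.6%) and 1 without both trends (14.1%). With 1 library left out it gave 0 to 1 (9.89 to 12.5%) and 34 to 40 (3.73 to 5.78%). The causes were not tested.

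Without the GC trend and without both trends, untreated overexpression changes turned to -0.066 and -0.040 for RPL22, -0.15 and -0.11 for RPL22L1, and -0.32 and -0.19 for RPL39. Under the same settings treated knockdown turned to 0.046 and 0.049 for RPL22L1, and treated overexpression to -0.030 and -0.019 for RPS6 and -0.23 and -0.25 for RPL7L1. RPL6 in treated overexpression turned to -0.013 without the GC trend. In treated overexpression, median-of-ratios scaling gave -0.094 for RPL7L1 and -0.13 for RPL39L. Quantile normalization there gave -0.013 for RPL39L, 0.058 for RPL11, 0.037 for RPLP0, 0.0022 for RPL41 and 0 for RPS27. Of 87 named changes, 12 turned under some setting, counting RPS27, which became 0 and did not take the opposite sign. Leaving out 1 library gave 606 fits of these same changes, 1 for each change and library left out. The sign turned in 0 of the 606, and the call was lost in 120. The summed level without mitochondrial genes was 40.7% in treated oeMCART1, 46.4% in treated oeNC and 43.4% in treated shMCART1 libraries, and 33.8% in oeMCART1, 34.4% in oeNC, 34.1% in shMCART1 and 32.9% in shScramble libraries without MPP+. With pseudogenes and readthrough genes it was 40.8% in oeMCART1, 46.8% in oeNC, 43.9% in shMCART1 and 43.3% in shScramble libraries with MPP+, and 33.2%, 32.3%, 33.5% and 32.2% in the same order without.

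Same-numbered replicates did not deviate together in every pair (correlations from -0.073 to 0.21), so the numbers were not taken to pair libraries. A replicate block gave 28 and 24 (12.6% and 30.4%) in untreated knockdown and 36 and 22 (35.5% and 16.6%) in untreated overexpression. It gave 13 and 18 (10.3% and 20.6%) in treated knockdown and 9 and 51 (46.2% and 14.1%) in treated overexpression. It gave 3 and 14 (1.12% and 12%) for the untreated controls and 46 and 12 (5.1% and 41.8%) for the treated controls. It gave 4 and 2 (2.53% and 3.37%) for the knockdown difference and 1 and 40 (13.3% and 5.69%) for the overexpression difference. TPM keep no depth, so counting error is unknown, and 3 libraries a group limit small changes.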
